A study of Mus musculus with 6 samples.

Results

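The genes described here encode the splicing factors of the SR, hnRNP, CLK and LUC7-like families, the U2 snRNP and U2AF proteins, the PRPF spliceosome proteins and 9 further named factors (Tra2a, Tra2b, Srrm1, Srrm2, Son, Pnisr, Rbm5, Rbm25 and Rbm39). They were chosen by symbol and by a mean value of at least 1 over all libraries. The rule took 71 of the 23997 gene symbols in the table, and all 71 were among the 15662 genes with that mean that were tested. They comprised 11 SR proteins, 9 SR-related and other named factors, 4 CLK kinases, 3 LUC7-like factors, 20 hnRNP proteins, 11 U2 snRNP and U2AF proteins and 13 PRPF proteins. RNA-seq had been performed on Lin-Sca-1+c-Kit+ (LSK) hematopoietic stem and progenitor cells (HSPCs) sorted from mouse bone marrow. The mice were C57BL/6, aged 6 to 8 weeks, and the condition is given as normal hematopoiesis. The groups were wildtype mice (WT, 3 libraries) and Mirc11-/- mice (3 libraries). In the latter the cluster of the miR-23a, miR-27a and miR-24 genes is deleted. The paper reports more B cells and fewer myeloid cells in the bone marrow of Mirc11-/- mice. Each library came from an RNA preparation pooled from 3 to 4 mice, so the p-values measure the spread between pools and not between single animals, and all 6 libraries carry the same batch label. The comparison asks which transcripts differ in HSPCs when the miRNAs of this cluster are missing.

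Splicing removes introns from pre-mRNA in the nucleus. The U1 snRNP, with which the LUC7-like proteins work, recognizes the 5′ splice site, and U2AF and the SF3A and SF3B subunits of the U2 snRNP recognize the 3′ splice site and the branch point. PRPF proteins build and remodel the tri-snRNP and the catalytic core. SR proteins mostly favor, and hnRNP proteins often oppose, the use of nearby exons, and CLK kinases phosphorylate SR proteins and so set where in the nucleus they act. Many of these genes limit their own output by including a poison exon or retaining an intron, which sends the transcript to decay or keeps it in the nucleus. Mutations of SF3B1, SRSF2 and U2AF1 are common in human myelodysplastic syndrome, a disease of the cells studied here.

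Values are normalized counts, that is, reads per gene scaled by a factor that is close to 1 in each library. They count all transcripts of a gene together, so that isoforms with and without a poison exon cannot be told apart here. Libraries held between 15772826 and 16250826 reads in genes in WT and between 15029379 and 17051541 in Mirc11-/-. The miRNA genes of the cluster matched the labels. Mir23a stood at 15.8, 15.9 and 19.3 in the WT libraries and at 0 in every Mirc11-/- library. Over the 3 libraries of each genotype it had 51 against 0 reads, and Mir27a and Mir24-2 had 54 and 73 WT reads against 0. With a floor of 3 reads over the group these are at least 17-fold, 18-fold and 24.3-fold lower. Kit and Ly6a, which encode the c-Kit and Sca-1 of the gate, were read in all libraries, at 6644 to 9950 and 374 to 683, so the labelled cell type had its defining transcripts.

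The mature miRNAs of the deleted cluster are shown because their seeds define the matches counted below. They are taken from RefSeq (GRCm38.p6), on the plus strand of chromosome 8, with the seed of bases 2 to 8 in capitals.
miR-23a-3p, chr8:84208563-84208583: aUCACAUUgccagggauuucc
miR-27a-3p, chr8:84208727-84208747: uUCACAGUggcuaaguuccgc
miR-24-3p, chr8:84208875-84208896: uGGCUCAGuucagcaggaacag
Each has a seed of its own, and a related cluster on another chromosome, which the deletion leaves in place, encodes miRNAs with the same seeds. The complement of each seed, AATGTGA for miR-23a-3p, ACTGTGA for miR-27a-3p and CTGAGCC for miR-24-3p, was sought on the transcript strand of every gene's 3′ UTR, taking the longest one annotated. The letters sought for miR-23a-3p and miR-27a-3p both end in TGTGA. A match followed by A counts as 8 bases and any other as 7. At least 1 match was found in 20 of the 71 splicing factor genes (28.2%), against 39.8% of the 13551 genes tested that have an annotated 3′ UTR.

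The matches in Luc7l3, Pnisr and Prpf4b, the members with a positive log2 fold change and an unadjusted p under 0.05, are shown, read 5′ to 3′ on the gene's strand (GRCm38, GENCODE M21) with the match in capitals.
Luc7l3, miR-23a-3p, chr11:94289458-94289486, minus strand: tccctttgtaaAATGTGAgcttttactcg
Luc7l3, miR-24-3p, chr11:94289157-94289186, minus strand: tacccttggagCTGAGCCAccaaattaaag
Pnisr, miR-27a-3p, chr4:21875205-21875233, plus strand: ttcttgaatgtACTGTGAtgtcaataaaa
Prpf4b, miR-23a-3p, chr13:34902717-34902745, plus strand: ttttcttttaaAATGTGActttaaagtgt
Prpf4b, miR-23a-3p, chr13:34905335-34905363, plus strand: ttttaaaagacAATGTGAtttttatttta
These are matches of letters, and no binding was measured. Hnrnpll, named after its values were seen, held no match. Its log2 fold change was 0.21 (95% confidence interval -0.04 to 0.45), beside 0.16 for Prpf4b. Srsf12 held none either, but its counts were too low to compare.

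The 71 genes took 2.59% to 2.66% of the reads in genes of the WT libraries and 2.58% to 2.68% of those of the Mirc11-/- libraries, so the genotypes overlapped in the share given to splicing factors. Levels between genes are compared per kb of annotated exon, merged over all annotated transcripts of a gene. Where the transcripts used in these cells are shorter than that, the value per kb is too low. Hnrnpr, for example, had 22199 exon bases and stood at 134 per kb, and its rank depends on that length. On this scale Hnrnpab, an hnRNP of the A/B type, was highest, at a mean of 5243 normalized counts per kb over the 6 libraries, followed by Hnrnpa2b1 at 3739 and Hnrnpa1 at 3469. The SR protein gene Srsf2 stood at 3358 per kb. The median per kb was 1404 for the hnRNP genes, 943 for the SR genes, 708 for the U2 snRNP and U2AF genes, 470 for the LUC7-like genes, 333 for the CLK genes and 272 for the PRPF genes. Srsf12 was the lowest at 2.36 per kb. With 2.08 to 16.1 normalized counts per library, differences in Srsf12 were not detectable at this depth.

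**Figure D1:**
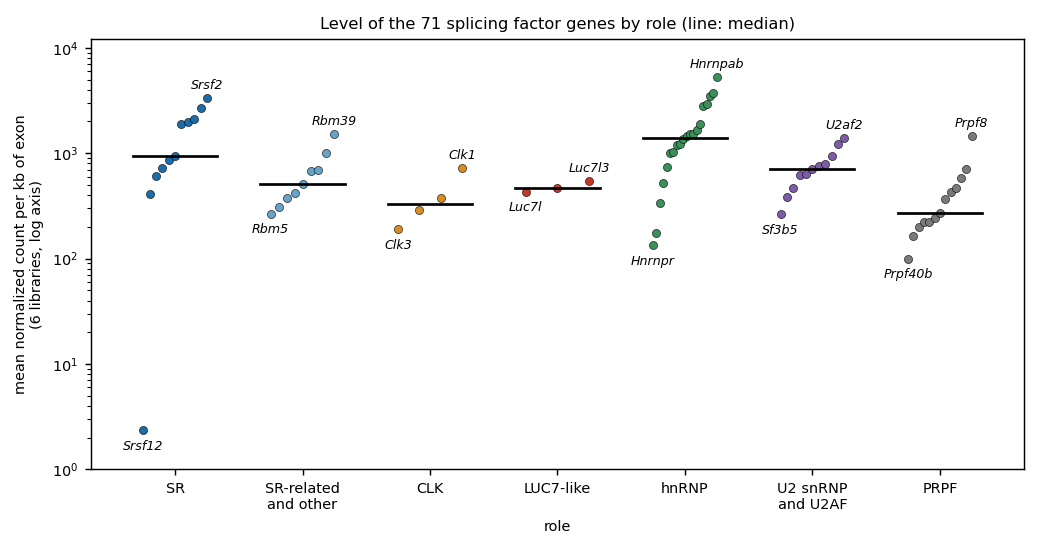
Mean normalized count per kb of exon over the 6 libraries (log axis) for each of the 71 splicing factor genes, by role, with the median of the role as a line. The hnRNP genes have the highest median (1404 per kb), and Srsf12 lies far below the other members at 2.36 per kb.

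As a group the splicing factors were close to level between the genotypes. By limma with an adjusted p threshold of 0.05, 0 of the 71 genes were called higher and 0 lower in Mirc11-/-, where 0.0319% of all genes tested (5 of 15662) were called. At an unadjusted p under 0.05 there were 7 members, of which 3 were higher and 4 lower (9.86%), near the 8.24% of all genes. By the other tools run, edgeR called 0 members, where it called 4 of all 15662 genes. DESeq2 called 1, where it called 0.827% of the genes it tested. Of the log2 fold changes (Mirc11-/- over WT), 35 were positive and 36 negative, with a median of -0.0024, beside 0.0025 over all genes tested. They ranged from -0.36 for Srsf5 to 0.57 for Luc7l3. In 66 of the 71 genes (93.0%) the log2 fold change was under 0.25 in size, as it was in 68.3% of all genes and in 88.6% of the 7715 genes with a mean of at least 400. The 95% confidence interval lay within 0.5 of zero on the log2 scale for 65 of the 71. For these a change by more than this size in either direction is outside the interval. The 6 others were Luc7l3, Pnisr, Srsf5, Hnrnph1, Prpf40b and the barely read Srsf12. Over all genes tested the interval lay within 0.5 of zero for 7582 of 15662. Among those with a mean of at least 400 it did for 6377 of 7715. In such bulk samples, fewer cells of a type and less RNA per cell cannot be told apart.

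**Figure D2:**
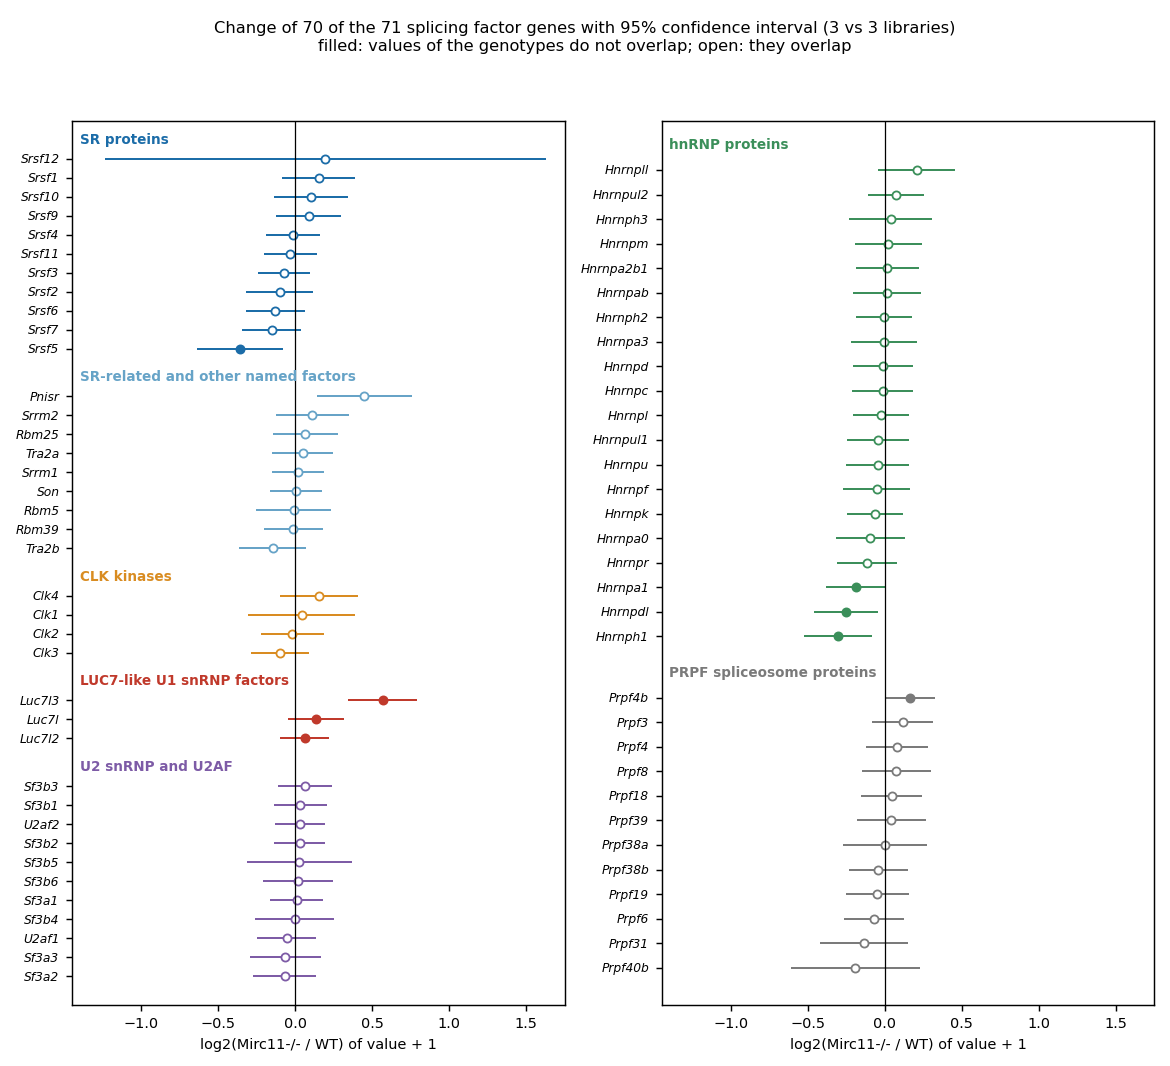
Log2 fold change (Mirc11-/- over WT, of the normalized count + 1) with its 95% confidence interval for the splicing factor genes by role, 1 gene left out; filled points are genes whose values do not overlap between the genotypes. Most points lie near zero, with Luc7l3 farthest to the right at 0.57 and Srsf5 farthest to the left at -0.36.

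The values of the WT and Mirc11-/- libraries did not overlap in 8 of the 71 genes (11.3%), near the 12.9% of all genes tested for which this holds. Luc7l3, Luc7l, Luc7l2 and Prpf4b were higher in every Mirc11-/- library, and Srsf5, Hnrnph1, Hnrnpdl and Hnrnpa1 were lower. The same 8 genes were separated after median-ratio and TMM scaling. Quantile normalization changed this split to 12 genes higher and 2 lower, beside 13.2% of all genes that did not overlap there, and Luc7l2, Hnrnph1 and Hnrnpa1 then overlapped. Sets of other transcripts moved with the genotype. The 28 erythroid markers were all higher by their means (median log2 fold change 0.89), with a sum of 31396 to 43100 normalized counts in WT and of 76755, 70367 and 33937 in Mirc11-/- libraries 1, 2 and 3. The 26 immediate-early genes, such as Fos, Jun and Egr1, were all lower (median -0.79), with a sum of 212397 to 312982 in WT and 92642 to 151413 in Mirc11-/-. Among the erythroid and immediate-early genes none was at 0 in all libraries. On the first principal component of all genes, Mirc11-/- library 3 (-18.6) fell among the WT libraries (-21.7 to -6.29), while Mirc11-/- libraries 1 and 2 lay apart at 39.4 and 19.0.

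Luc7l3, at chr11:94287890-94321988 on the minus strand (GRCm38), encodes a LUC7-like protein with an arginine- and serine-rich tail that associates with the U1 snRNP. Its normalized counts were 3125, 2945 and 3509 in the WT libraries and 4863, 5023 and 4294 in the Mirc11-/- libraries. Every Mirc11-/- library was above every WT library, Mirc11-/- library 3 being the nearest to WT. The ratio was 1.48-fold (95% confidence interval 1.28 to 1.72), a log2 fold change of 0.57 with a standard error of 0.10, and by limma its adjusted p was 0.278, so it did not pass the threshold over all genes, where its p ranked 13 of 15662. DESeq2 on the recovered reads called it higher, with an adjusted p of 0.000756, beside 0.251% of the genes it tested that were called higher, while edgeR gave an adjusted p of 0.331. Without Mirc11-/- library 3 limma called it at a log2 fold change of 0.63 and an adjusted p of 0.0156, a fit in which 1.63% of all genes were called higher. Without Mirc11-/- library 2 the log2 fold change was 0.52 and the adjusted p by limma 0.998. Over the 18 alternatives the log2 fold change stayed between 0.49 and 0.71 and the adjusted p of limma, edgeR or DESeq2 between 0.000142 and 0.998. Array weights, a fit in which 36.2% of all genes were called, are among these alternatives. In a fit that takes the mean level of the erythroid markers of each library as a covariate the log2 fold change was 0.49.

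The other LUC7-like genes differed by less. Luc7l (chr17:26252896-26285504) had 2883, 3142 and 3285 normalized counts in WT and 3396, 3351 and 3467 in Mirc11-/-. The groups did not overlap, but WT library 3 and Mirc11-/- library 2 stood close together, and the log2 fold change of 0.14 had a 95% confidence interval of -0.04 to 0.31 and an adjusted p of 0.640 by limma. Luc7l2, loss of which is known in myeloid neoplasms, had 5451, 5603 and 5636 in WT and 5721, 5789 and 5895 in Mirc11-/-. It rests on narrow spreads, with a log2 fold change of 0.06 (-0.09 to 0.21) and an adjusted p of 0.818 by limma, and its exons overlap an antisense gene whose reads a kit without strand marks cannot separate. The sum of the 3 genes was 11860 ± 507 in WT and 13933 ± 256 in Mirc11-/- (SD, n = 3), 1.17-fold higher. Of the difference between these sums Luc7l3 made up the largest part. All 3 genes kept a positive log2 fold change in all 18 alternatives.

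**Figure D3:**
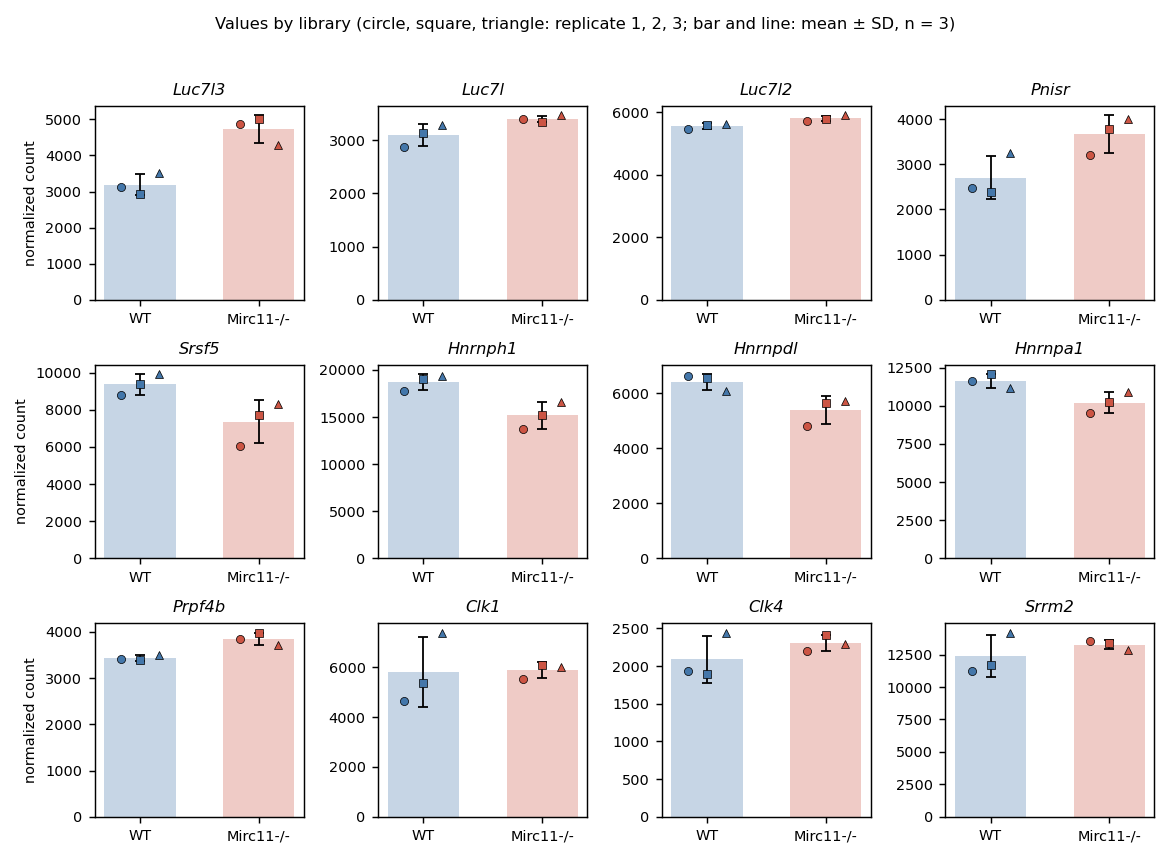
Normalized count in each library for 12 genes, with bars for the mean and lines for the SD of the 3 libraries of each genotype; the axes start at 0. Luc7l3 is higher in each Mirc11-/- library (4294 to 5023) than in WT (2945 to 3509), Srsf5 and Hnrnph1 are lower, and WT library 3 stands above the other WT libraries in Clk1, Clk4, Pnisr and Srrm2.

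Among the SR proteins the log2 fold change was positive in 4 genes and negative in 7 (median -0.03). By limma 1 of 11 (9.09%) had an unadjusted p under 0.05, beside 8.24% of all genes. Srsf5 (chr12:80945504-80950507, plus strand), an SR protein that promotes inclusion of exons with its binding sites, had the lowest ratio of all 71 genes. It had 8819, 9381 and 9936 normalized counts in WT and 6070, 7733 and 8305 in Mirc11-/-. Mirc11-/- library 1 was the lowest and Mirc11-/- library 3 came close to WT library 1 without reaching it. The log2 fold change was -0.36 (standard error 0.12, 95% confidence interval -0.63 to -0.09) with an adjusted p of 0.502 by limma. In the fit with the erythroid covariate it was -0.16, and leaving out 1 library at a time it lay between -0.45 and -0.23.

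The other SR proteins named by rule did not pass the threshold either. Srsf7, whose product shuttles to the cytoplasm and also takes part in mRNA export, had 9604, 9993 and 10642 in WT against 8737, 8745 and 9724 in Mirc11-/-. Its groups overlapped through Mirc11-/- library 3, at a log2 fold change of -0.15 and an adjusted p of 0.633 by limma. Srsf6 had 9736, 10293 and 9683 in WT against 8433, 8972 and 9798, with the same library inside the WT range and a log2 fold change of -0.13. Srsf1, the founding SR protein of constitutive and alternative splicing, went the other way. It stood at 10515, 10677 and 9695 in WT and at 12601, 11827 and 9993 in Mirc11-/-, where libraries 1 and 2 exceeded all WT libraries and library 3 did not. Its log2 fold change of 0.15 became -0.014 in the fit with the erythroid covariate. The SR genes together summed to 69398 ± 1716 in WT and 65792 ± 844 in Mirc11-/- (SD, n = 3).

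Pnisr, an SR-related protein of nuclear speckles (chr4:21847583-21876475, plus strand), had the second highest log2 fold change of the 71 genes. It had 2467, 2383 and 3248 normalized counts in WT and 3194, 3784 and 4005 in Mirc11-/-. WT library 3 lay above Mirc11-/- library 1, so the groups overlapped. The log2 fold change was 0.45 (0.14 to 0.75), with an adjusted p of 0.459 by limma and 0.187 by DESeq2. It was 0.62 with the erythroid covariate. Tra2b, which binds GAA-rich exonic enhancers, had 3234, 3908 and 3874 in WT and 3479, 3246 and 3193 in Mirc11-/-, with WT library 1 as low as the Mirc11-/- libraries. Srrm2, the large scaffold protein of nuclear speckles, had 11215, 11680 and 14199 in WT and 13541, 13396 and 12888 in Mirc11-/-. All Mirc11-/- values fell inside the WT range, and its log2 fold change was 0.11. The 9 genes of this group had 6 positive and 3 negative log2 fold changes, with a median of 0.02.

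In Clk1 and Clk4 the WT libraries differed from each other by more than the means of the genotypes did. Clk1 had 4668, 5395 and 7404 normalized counts in WT and 5517, 6112 and 6016 in Mirc11-/-. The Mirc11-/- values all lay inside the WT range, and its coefficient of variation was 24.3% in WT, the highest of the 71 genes there, and 5.43% in Mirc11-/-. The log2 fold change was 0.04, with a wide 95% confidence interval of -0.30 to 0.38, and it took the other sign without WT library 1 (-0.11) and without WT library 2 (-0.000915). Clk4 had 1929, 1891 and 2446 in WT and 2201, 2417 and 2297 in Mirc11-/-, with a log2 fold change of 0.15 (-0.09 to 0.40). WT library 3 was again the highest. That library also had the highest WT values of Pnisr and Srrm2 and the highest sum of immediate-early genes. Whether these are linked was not tested. Clk2 and Clk3 varied less, with 1470, 1493 and 1617 against 1392, 1509 and 1622 for Clk2 and 1660, 1628 and 1701 against 1453, 1569 and 1636 for Clk3. Their log2 fold changes were -0.02 and -0.10, with adjusted p of 0.970 and 0.738 by limma. Exons of Clk3 and Clk4 overlap other annotated genes.

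Of the 20 hnRNP proteins 6 leaned higher and 14 lower by the sign of the log2 fold change (median -0.02). An unadjusted p under 0.05 by limma was found for 3 genes (15%), all lower, beside 8.24% of all genes in either direction. Among all 15662 genes it was found for 650 higher and 640 lower. Hnrnph1 (chr11:50376990-50386528, plus strand) binds runs of G and can enhance or silence exons by where it binds. Its normalized counts were 17717, 19066 and 19337 in WT and 13729, 15189 and 16625 in Mirc11-/-. Each Mirc11-/- library was below each WT library, at a log2 fold change of -0.30 (standard error 0.09, 95% confidence interval -0.52 to -0.09) and an adjusted p of 0.476 by limma. In the fit with the erythroid covariate it was -0.17. Its paralog Hnrnph2 had a log2 fold change of -0.01.

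Hnrnpdl (chr5:100033577-100039664, minus strand), a relative of the AU-rich element binding protein hnRNP D, had 6624, 6547 and 6088 in WT and 4813, 5670 and 5720 in Mirc11-/-. The groups were separate, with Mirc11-/- library 1 the farthest out, and the log2 fold change was -0.25 (-0.46 to -0.05) with an adjusted p of 0.519 by limma. Hnrnpa1 (chr15:103240432-103246692, plus strand), which silences exons by spreading along the pre-mRNA, had 11662, 12091 and 11202 in WT and 9504, 10232 and 10928 in Mirc11-/-. Mirc11-/- library 3 lay just below WT library 3. The log2 fold change was -0.19 (-0.38 to -0.0034) with an adjusted p of 0.597 by limma, and -0.11 with the erythroid covariate. Hnrnpa1 has many processed pseudogenes, and how reads that match several places were counted is not given in the sources used here. Hnrnpa2b1, the hnRNP gene with the highest mean count, had 24068, 25194 and 24133 against 26050, 25461 and 22817. The Mirc11-/- libraries stood on both sides of WT, at a log2 fold change of 0.02 (-0.18 to 0.22). The sum of the 20 genes was 184812 ± 7920 in WT and 177639 ± 4515 in Mirc11-/- (SD, n = 3).

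Srsf5 and Hnrnph1 shared an order of the libraries that was noticed after their values were seen. In both genes the libraries ran from low to high as Mirc11-/- 1, 2 and 3 and then WT 1, 2 and 3, the order of the summed immediate-early genes. This was so for 2 of the 71 genes (2.82%) and for 0.384% of the other genes tested (60 of 15636, the immediate-early genes left out). The reverse order was found in 0 of the 71 and in 59 of the other genes (0.377%). Since the order was noticed in these 2 genes, their share among the 71 is not a test. Ddx5, a helicase of the companion lists described below, had the same order. The order separates the genotypes, so these transcripts, the immediate-early genes and the genotype cannot be told apart in these 6 libraries. Luc7l3 did not have this order.

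**Figure D4:**
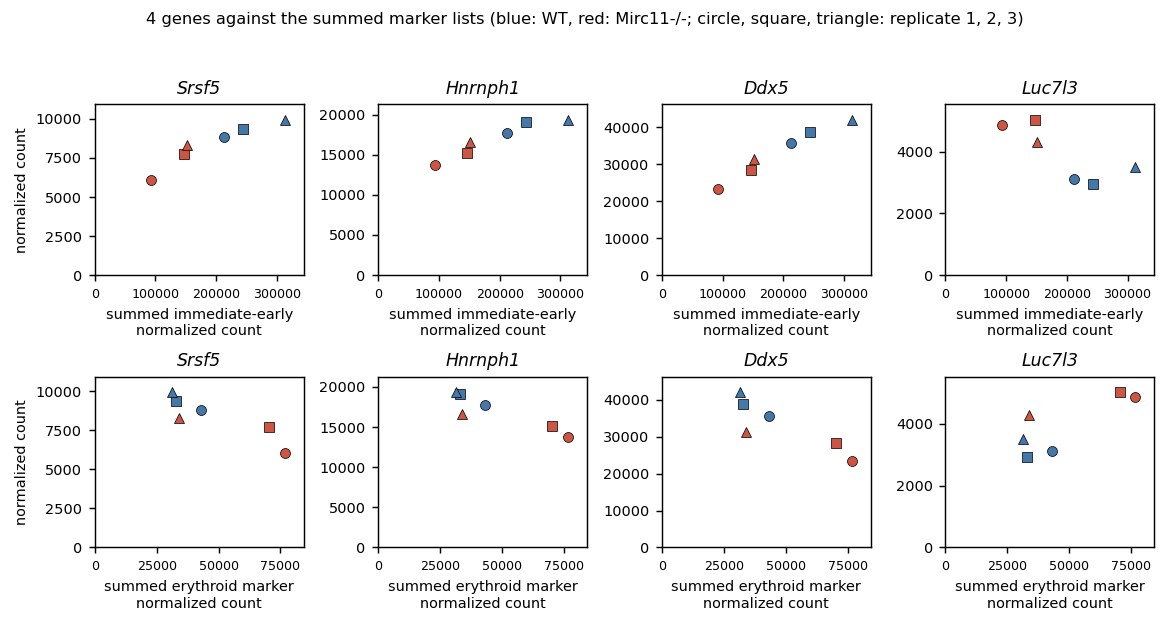
Normalized count of Srsf5, Hnrnph1, Ddx5 and Luc7l3 in each library against the summed immediate-early genes (upper row) and the summed erythroid markers (lower row), both in normalized counts; all axes start at 0. Srsf5, Hnrnph1 and Ddx5 have the library order of the immediate-early sum, and Mirc11-/- library 3 has an erythroid sum of 33937, inside the WT range.

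The U2 snRNP and U2AF genes were the most even of the roles by the range of their changes, with 7 positive and 4 negative log2 fold changes between -0.07 and 0.06. None of the 11 had an unadjusted p under 0.05 and none was separate between the genotypes, beside 8.24% and 12.9% of all genes. Sf3b1, the branch point subunit most often mutated in myelodysplastic syndrome, had 10193, 10565 and 11039 normalized counts in WT and 10648, 10896 and 10975 in Mirc11-/-. All Mirc11-/- values lay inside the WT range, and the log2 fold change of 0.03 had a 95% confidence interval of -0.13 to 0.20. Sf3b3, a scaffold of SF3B, had 7772, 7599 and 7292 against 8289, 7827 and 7597 (log2 fold change 0.06). Sf3a2 had 2244, 2227 and 1955 against 2170, 1948 and 1999 (-0.07). U2af1, the subunit that reads the AG of the 3′ splice site, had 1787, 1710 and 1556 against 1647, 1645 and 1558 (-0.06). In these genes the genotypes overlapped, and the adjusted p by limma was between 0.822 and 0.995 across the role.

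In the PRPF genes 7 log2 fold changes were positive and 6 negative, between -0.19 and 0.16. Prpf4b (chr13:34875302-34906064, plus strand), a kinase of the tri-snRNP, had 3405, 3393 and 3506 in WT and 3839, 3988 and 3716 in Mirc11-/-. Every Mirc11-/- library was higher, at a log2 fold change of 0.16 (standard error 0.07, 95% confidence interval 0.0047 to 0.32) and an adjusted p of 0.593 by limma. Its exons overlap an antisense gene. Prpf3, a tri-snRNP protein, had 1399, 1239 and 1350 against 1508, 1436 and 1372, and WT library 1 lay above Mirc11-/- library 3. Prpf8, the scaffold of the catalytic center, had 10722, 10674 and 10138 against 12203, 11421 and 9720. Mirc11-/- libraries 1 and 2 were above WT and library 3 was below it. In the fit with the erythroid covariate the log2 fold change of 0.07 became -0.083. Prpf40b, the member with the second widest spread in Mirc11-/- (coefficient of variation 25.9%), had 507, 496 and 566 against 343, 475 and 586.

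**Figure D5:**
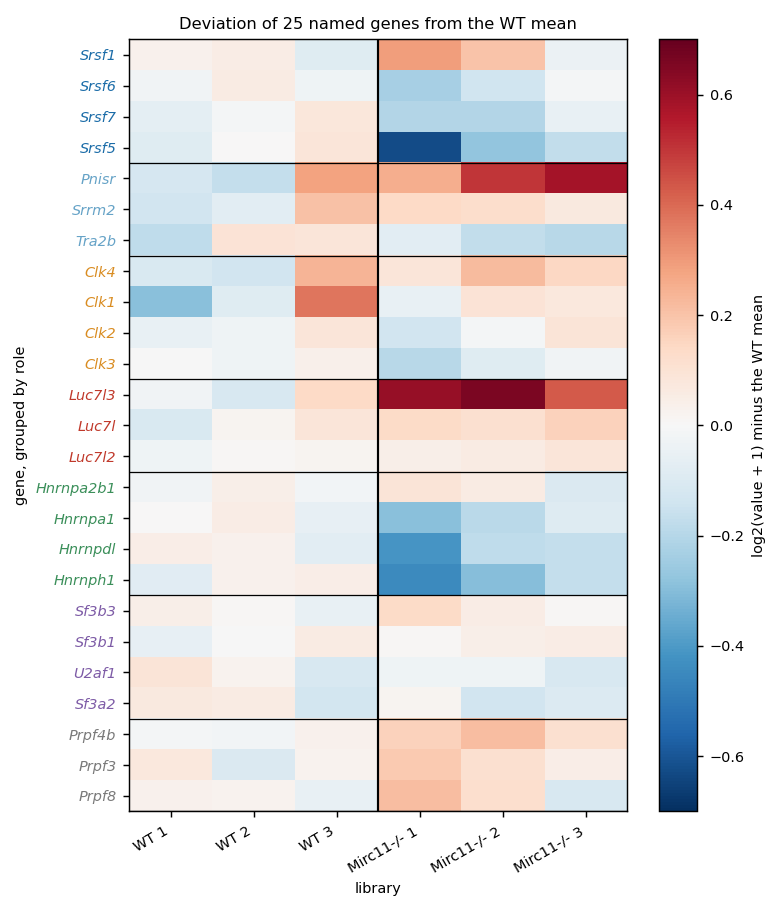
Difference of log2(normalized count + 1) from the WT mean in each library (columns) for the 25 genes named by rule and reported (rows, grouped and colored by role). Luc7l3 is high and Srsf5 and Hnrnph1 are low in all Mirc11-/- libraries, while Srsf1 and Prpf8 are high in Mirc11-/- libraries 1 and 2 and not in library 3.

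The libraries differed in how many of the 71 genes stood 0.25 or more from the WT mean on the log2 scale. Mirc11-/- library 1 had 6 above and 5 below, Mirc11-/- library 2 had 3 above and 3 below, and Mirc11-/- library 3 had 3 above and 2 below. The WT libraries had 0 to 2 above and 0 to 1 below. They make up the WT mean and so lie nearer to it by construction, and these counts do not compare the genotypes. The share of all genes at this distance was not counted per library. Between the genotypes, 5 of the 71 genes differed by 0.25 or more, beside 4964 of the 15662 tested. The median coefficient of variation over the 71 genes was 6.03% in WT and 6.04% in Mirc11-/-, beside 10.9% and 14.3% over all genes tested and 6.93% and 8.63% over genes with a mean of at least 400. The Mirc11-/- libraries were no more variable in these genes than the WT libraries by this median. By role, the CLK kinases had the highest median of the roles in WT, with single genes between 2.22% (Clk3) and 24.3% (Clk1), and a median of 5.71% in Mirc11-/-.

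The matches to the miRNA seeds were set beside these changes. The median log2 fold change was 0.04 in the 20 splicing factor genes with a match and -0.01 in the 51 without, beside 0.02 and -0.01 over all genes with a 3′ UTR. Of the 4 genes that were higher in every Mirc11-/- library, 3 held a match (Luc7l3, Luc7l and Prpf4b), in 3′ UTRs of 2892 to 4468 bases for the 4. Luc7l held 1 match for miR-23a-3p, 3 for miR-27a-3p and 2 for miR-24-3p in a 3′ UTR of 3738 bases, and its log2 fold change was 0.14. None of the 4 that were lower held a match, in 3′ UTRs of 529 to 1429 bases. Among all genes with an annotated 3′ UTR whose groups did not overlap, 52.2% of the 869 higher and 32.4% of the 865 lower held a match. Their median 3′ UTRs were 1833 and 936 bases, in that order. The part of 3′ UTR length in these counts was not tested. Hnrnpr had the most, 10 matches in an annotated 3′ UTR of 19419 bases, and its log2 fold change was -0.12. Clk3 (miR-23a-3p), Srsf1 (miR-27a-3p) and Srsf6 (miR-24-3p) held 1 match each, with log2 fold changes of -0.10, 0.15 and -0.13. Matches were thus found in genes on both sides of zero. The longest annotated 3′ UTR may not be the one used in these cells.

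Other genes of the splicing machinery, in 6 companion lists with 135 genes tested, gave 0 genes called higher and 0 lower by limma. At an unadjusted p under 0.05 there were 4 higher and 2 lower (4.44%, beside the 8.24% of all genes). The genotypes did not overlap in 22 of the 135, 8 higher and 14 lower (16.3%, beside 12.9% of all genes). Among the 35 other regulators this was so for 10, 3 higher and 7 lower (28.6%), the highest share of the 6 lists. DESeq2, which called 0.827% of the genes it tested, called 2 of them, and edgeR, which called 4 of all 15662 genes, called 0. The median log2 fold change was 0.01, and 79 were positive and 56 negative. None of the 38 Sm, LSm and snRNP genes, 25 NTC and catalytic step genes, 10 minor spliceosome genes, 19 exon junction complex and NMD genes, 35 other regulators and 8 SR kinase and transport genes was called by limma in either direction.

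Ddx5, an RNA helicase that acts in splicing and miRNA processing, was the companion with the lowest log2 fold change. It had 35669, 38753 and 42045 normalized counts in WT and 23451, 28421 and 31376 in Mirc11-/-. The groups were separate, at a log2 fold change of -0.49 (-0.77 to -0.21), with an adjusted p of 0.426 by limma and 0.0360 by DESeq2. It was -0.29 in the fit with the erythroid covariate and -0.30 after quantile normalization. Celf1, a regulator that binds GU-rich sites, had 3069, 3133 and 3572 in WT and 4299, 4389 and 4067 in Mirc11-/-. Every Mirc11-/- library was higher, at a log2 fold change of 0.39 (0.20 to 0.58), with an adjusted p of 0.406 by limma and 0.0313 by DESeq2. Without Mirc11-/- library 3, limma gave Ddx5, Celf1 and Rnpc3 adjusted p of 0.0447, 0.0473 and 0.0498, where 2.75% of all genes were called. Rnpc3, a protein of the minor spliceosome, had 284, 320 and 294 in WT and 416, 494 and 368 in Mirc11-/-. Its groups were separate, with a log2 fold change of 0.50 and an adjusted p of 0.441 by limma.

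Lsm7, a subunit of the U6 snRNP and of the decay complex of the cytoplasm, had 157, 133 and 120 in WT and 205, 206 and 163 in Mirc11-/-, at a log2 fold change of 0.49 (0.09 to 0.88), which was 0.26 with the erythroid covariate. The groups were separate, but WT library 1 and Mirc11-/- library 3 were close. Snrpa, a U1 protein, had 1694, 1772 and 1597 against 1568, 1478 and 1443, and Snrnp35, of the minor spliceosome, had 176, 181 and 145 against 239, 192 and 184. The genotypes did not overlap in either gene. Xab2 and Ctnnbl1, of the NTC list, had log2 fold changes of -0.12 and -0.15, and Pnn and Smg9, of the exon junction and NMD list, of 0.11 and -0.14. Dyrk1b and Ppp1r8, of the SR kinase and transport list, had log2 fold changes of -0.15 and 0.17, that of Dyrk1b with a 95% confidence interval of -0.63 to 0.33. The adjusted p of these 9 genes by limma was between 0.524 and 0.860.

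Other marker lists give the makeup of the libraries beside these results. Summed neutrophil and monocyte markers (11 in the table) were 174478 to 211652 in WT and 149359 to 244911 in Mirc11-/-, and the 12 LSK and stem cell markers 41690 to 49392 and 27999 to 49466. The 12 B and T cell markers were low, at 611 to 662 and 495 to 849, with Cd3e at 0 in every WT library, and the 7 megakaryocyte markers were at 1554 to 2180 and 1856 to 2531. Mirc11-/- library 1 had the lowest stem cell sum and the highest erythroid sum, and also the lowest Srsf5, Hnrnph1, Hnrnpdl and Hnrnpa1. The part of these lists in the changes of the splicing factor genes was not tested beyond the erythroid covariate.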

How the data were processed

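HSPC RNA from 3 WT and 3 Mirc11-/- preparations was isolated with the miRNeasy kit, poly(A) selected and made into NEBNext Ultra II libraries without strand marks. STAR, Cufflinks and mm10 are named in the submitters' processing notes, while the supplementary methods name the human build hg19. Since the gene symbols are murine, mm10 was assumed. Tool versions, like the annotation, were not given in the sources used here. Although the deposited table carries FPKM in its name, its signal per gene is a read count divided by a library size factor: 100% of the values above 0 were whole multiples of 1 read within 0.001. The design had assumed FPKM, so limma on log2(value + 1) was kept and count tests were run on the recovered reads. The gate is that of the text and labels, while a legend gives Lin-Sca1-cKit+.

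Genes averaging 1 or more over the libraries were compared by limma 3.58.1 (R 4.3.3) with empirical Bayes moderation and a trend, two-sided, with Benjamini-Hochberg adjustment over 15662 genes and a threshold of 0.05. Alternatives were edgeR 4.0.16, DESeq2 1.42.0, pseudocount 0.1, no filter, a filter of 10, median-ratio, TMM and quantile scaling, no trend, array weights, the replicate block, an erythroid covariate and each library left out. The fits were run on simulated counts drawn independently for each gene, without shifts shared between genes, and the outcome is not given here. Members and lists were chosen with earlier results of these data known. Genes were named by rule: the 3 members of each role with the smallest p and the one with the highest mean, all CLK and LUC7-like genes, and the 2 genes of each companion list with the smallest p. A gene that the rule selects is not reported here, though it is in the counts. Hnrnph2, Hnrnpll, Hnrnpr, Prpf40b and Srsf12 were named after their values were seen. Positions and 3′ UTRs come from GENCODE M21, and all 71 genes matched. Exons of 27 of the 71 overlap another annotated gene, 5 on the same strand, and their reads may be shared. Cenatac and Ly6g, in the lists, have no row under these symbols and were not analysed here.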

Additional observations from a re-analysis of the deposited data

How the results depend on the processing

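Over 18 alternatives, the median log2 fold change of the 71 genes stayed near zero, and of 666 values for the 37 named genes 621 kept sign and call, 31 passed the threshold that they had missed and 14, in 6 genes, changed sign. Array weights called 9 splicing factor genes higher and 11 lower and 46 companions, in a fit in which 36.2% of all genes were called and Mirc11-/- library 2 received a weight of 23.9 against 0.25 to 1.83 for the others, and gave 30 members (42.3%) an unadjusted p under 0.05, beside 47.1% of all genes. DESeq2, which called 0.827% of the genes it tested, called 1 member higher and 2 companions. Leaving out 1 library gave 0 to 1 members called higher and 0 to 3 companions called. The highest were each without Mirc11-/- library 3, where 2.75% of all genes were called. In these fits 4 to 13 members had an unadjusted p under 0.05 (5.63% to 18.3%, beside 3.96% to 20% of all genes). The groups did not overlap in 9 to 25 members (12.7% to 35.2%, beside 16.9% to 38.3%). The ends of the ranges do not always come from the same fit. Without WT library 3, 35.2% of members were separate, beside 26% of all genes, and 12.7% had an unadjusted p under 0.05, beside 8.04%. Without Mirc11-/- library 3 these shares were 31% beside 38.3% and 18.3% beside 20%. The unadjusted count was 4 (5.63%) without a trend and 4 with the erythroid covariate, beside 7.58% and 9.11% of all genes, and quantile normalization left 14 members not overlapping. The erythroid covariate moved the log2 fold change by over 1.5 times, or past zero, in 21 of the 37 named genes, in 17 of them toward zero or past it. It turned to 0.090 for Clk2, 0.20 for Dyrk1b, -0.068 for Hnrnpa2b1, -0.083 for Prpf8 and -0.014 for Srsf1. That of Clk2 was 0.0049 with array weights. Leaving out 1 library moved the log2 fold change across zero for Clk1 (-0.11 to 0.23, below zero without WT library 1 or 2), Clk2 (-0.074 to 0.036) and Dyrk1b (-0.33 to 0.021), both above zero without WT library 3 or Mirc11-/- library 1, and Hnrnpa2b1 (-0.021 to 0.074, below zero without Mirc11-/- library 1 or 2). The cause of these moves was not tested. With a replicate block, 0 members were called higher, 0 lower and 0 companions. How many of all genes were called in that fit is not given here. An unadjusted p under 0.05 was found for 8 members (11.3%), beside 12.2% of all genes. The correlation of same-numbered libraries was 0.14, -0.20 and 0.20, and WT library 2 correlated best with Mirc11-/- library 1, so the numbers were not taken as a pairing. Each genotype had 3 pools, at 15029379 to 17051541 reads in genes, and at this depth Srsf12 was too low to compare.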
